A study of Mus musculus with 4 samples.

Results

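The miR-130 and miR-301 family was followed through its 3p arms mmu-miR-130a-3p, mmu-miR-130b-3p and mmu-miR-301a-3p (mmu for mouse), which are 3 of the 1881 miRNAs on the array. They were taken by name. RNA of the exosome fraction, the vesicles spun out of culture medium, was read on 4 single-colour arrays. The source was 3T3-L1, an established mouse preadipocyte line. The groups were D0, when cells in growth medium (low-glucose DMEM) were about to be moved to differentiation medium, and D4, D12 and D16, counted in days from that move. After it the cells were kept in high-glucose DMEM, first with 1-methyl-3-isobutylxanthine, dexamethasone and insulin, and then with insulin alone. Every group had fetal bovine serum depleted of exosomes, penicillin and streptomycin. Each day was 1 array of RNA mixed from 2 independent experiments by the methods, or 3 by the sample descriptions, so the days could not be checked against replicates and were not tested. Equal amounts of exosome protein were mixed, and more vesicles of a kind, more releasing cells and more of a miRNA per vesicle cannot be told apart.

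miRNAs pair with messenger RNAs mainly through the seed, a short stretch near the 5′ end, and so reduce the output of their targets. The miR-130 and miR-301 miRNAs share a seed and are grouped as a family for that reason. miR-130 is known as a repressor of Pparg, the nuclear receptor that drives preadipocytes to become fat cells. The 3p arms are the arms that usually accumulate in cells.

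The mature sequences show how close the members are, and are printed from RefSeq (GRCm38.p6) with the seed, bases 2 to 8 from the 5′ end, in capitals.
miR-130a-3p: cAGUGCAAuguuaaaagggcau
miR-130b-3p: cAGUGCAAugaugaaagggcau
miR-301a-3p: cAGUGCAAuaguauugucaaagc
All 3 had the seed AGUGCAA. miR-130b-3p differed from miR-130a-3p by 2 substitutions, U11A and A13G, with positions counted from 1 at the 5′ end of miR-130a-3p. miR-301a-3p shared the first 9 bases of miR-130a-3p and was 1 base longer, with 23 against 22 bases. The table placed the hairpin of miR-130a at chr2:84741115-84741178 on the minus strand, inside the bounds of no other gene. The hairpin of miR-301a lay at chr11:87113004-87113089 on the plus strand, inside the bounds of Ska2. That of miR-130b was at chr16:17124061-17124142 on the minus strand, inside the bounds of 2610318N02Rik, which also hold the hairpin of its neighbour miR-301b. The array files name another assembly (mm9) and give no positions of miRNA genes, so these coordinates come from RefSeq alone.

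The array as a whole set the scale for the members. The total gene signal is a background-subtracted intensity, summed over those probes of a miRNA that exceed 3 times their error. It was not scaled between arrays. Over the 283 miRNAs detected on all 4 arrays the D4 array stood at a median of 2.59 times D0, D12 at 1.99 and D16 at 1.32, which is 1.37, 1.00 and 0.41 on the log2 scale. Each member is therefore given both as its plain ratio and as that ratio divided by the median. The D0 array was also the most uneven, with a median variation between replicate spots of 21.1% against 7.19% to 8.07% on the other arrays.

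miR-130a-3p was present in the exosome fraction on all days and higher on each later array than at D0. From a signal of 15.4 ± 1.61 at D0 it went to 84.7 ± 6.30 on the D4 array, 143 ± 10.4 on the D12 array and 107 ± 7.77 on the D16 array, where the error is the one the software gives for a single array. The D0 array was the lowest and the D12 array the highest. Unscaled, D4 was 5.50 ± 0.706 times D0, D12 was 9.30 ± 1.18 times and D16 was 6.94 ± 0.883 times. These changes exceeded that of the typical miRNA, since after division by the median ratio they were 2.13, 4.66 and 5.24. At D4 the size depended on the scaling, with 1.29 against the 75th percentile, 1.86 against the 90th and 1.95 after quantile normalization.

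A ratio above 2 was common among all miRNAs. At D12, 142 of the 297 miRNAs detected on both days passed 2-fold without scaling, which is 47.8%, and 58 did so after division by the median, which is 19.5%. miR-130a-3p was past 2-fold in both counts. Its D12/D0 ratio ranked 17 from the highest among the 297. Its rank was 60 among 317 miRNAs for D4/D0, where 62.1% passed 2-fold unscaled and 20.8% after division by the median. For D16/D0 its rank was 15 among 289, where these shares were 31.1% and 22.1%. Ratios below 0.5 at D12 were found for 10 of the 297 (3.37%), none of them a member. The place of miR-130a-3p among the miRNAs detected on both days was thus further forward at the later days than at D4. These ranks leave out miRNAs not detected at D0, such as miR-144-3p, which was at least 21.7-fold above its D0 limit at D12.

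**Figure D1:**
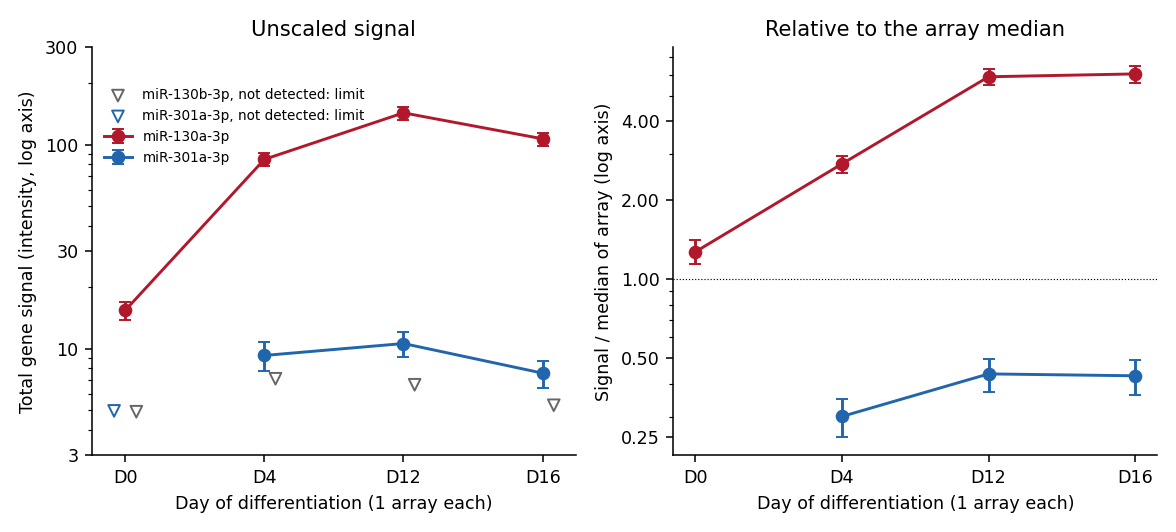
Total gene signal of the 3 members by day (left, intensity on a log axis) and the same signal divided by the median of the array over the miRNAs detected on all 4 arrays (right, log axis). Points are single arrays with the error of the software as bars, and open triangles are 3 times the summed probe error on days without detection. Without scaling miR-130a-3p was highest at D12, with 143, while relative to the array median D12 and D16 lay at 5.89 and 6.04. Levels of different miRNAs are not comparable.

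From D4 to D12 the unscaled signal of miR-130a-3p rose, while that of the median miRNA fell. The ratio was 1.69 ± 0.176 for miR-130a-3p and 0.843 for the median miRNA, so that the quotient was 2.00. The rank of miR-130a-3p was 30 among 374. For comparison, 30 of the 374 miRNAs, or 8.02%, were above 2 after division by the median, and 4.81% without it. From D12 to D16 the unscaled ratio was 0.746 ± 0.0766, against a median of 0.695 for all miRNAs. The quotient was 1.07, and 0.809% of 371 miRNAs had a quotient above 2. Its direction turned with every scaling between arrays that was tried, to 1.01 with the spike-in RNAs and up to 1.08 with the 75th percentile. In the order of unscaled levels, D4 and D16 were 2.21 technical errors apart and D16 and D12 2.81, whereas D0 and D4 were 10.7 apart. These totals carry a software factor for spot size, which differed between D16 (0.6) and D12 (0.760). With that factor taken out, a setting chosen after seeing the data, the D16/D12 ratio was 0.939 in place of 0.746. The ratios to D0 were then 4.23, 7.34 and 6.89 in the order of the days. Spots at matched positions had median D16/D12 ratios of 0.962 and 0.943 by probe.

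Both probes of miR-130a-3p were detected on all 4 arrays, so the sum rested on the same 2 probes each day. Each probe was printed as 15 spots, and every one of them was well above background on each array. For the probe A_54_P1044 the spots ranged from 19.4 to 48.7 at D0, from 117 to 144 at D4, from 204 to 247 at D12 and from 162 to 240 at D16. No D0 spot reached the lowest spot of a later day. For A_54_P1045 the ranges were 24.8 to 55.6, 160 to 198, 254 to 351 and 241 to 331 in the same order, again without overlap between D0 and the other days. At each of the 15 positions of both probes the D12 spot was brighter than the D0 spot, and also brighter than the D4 spot. Spots of 1 array share their RNA and labelling and are not replicates of a day. How many other miRNAs had spots without such overlap was not counted. In total gene signal the D4, D12 and D16 arrays stood at medians of 2.59, 1.99 and 1.32 times D0.

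The size of the ratio depended on where the spots lay. At D0 the median of A_54_P1044 was 28.2 over its 4 spots on the left of the array and 40.5 over its 11 spots on the right. For A_54_P1045 it was 30.1 over 11 spots on the left and 52.5 over 4 on the right. At D12 the sides differed less, with 231 and 220 for the former probe and 313 and 293 for the latter. The D12/D0 ratio was therefore 11.8 from the spots on the left and 7.23 from those on the right. The probes were also in different proportion at D0, where A_54_P1045 was 1.01 times A_54_P1044, against 1.37 on each of the other arrays. They lay mostly on opposite sides, and the part of this unevenness in their D0 proportion was not tested.

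**Figure D2:**
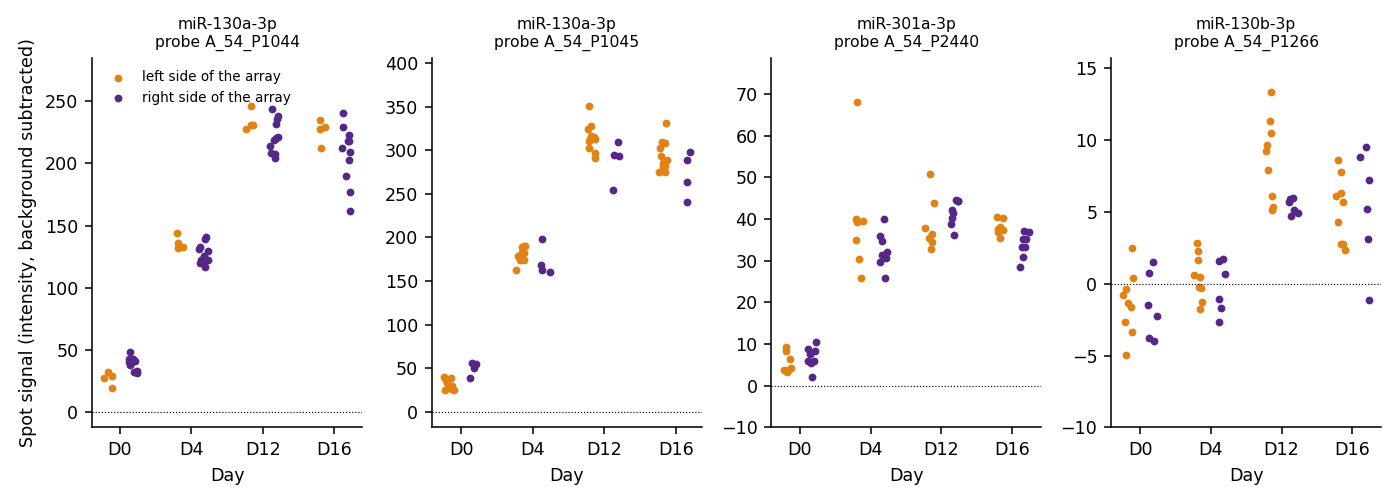
Background-subtracted signal of each spot (intensity, linear axes that differ between panels) by day for both probes of miR-130a-3p, the detected probe of miR-301a-3p and 1 probe of miR-130b-3p. Orange points lie on the left side of the array and purple points on the right. The D0 spots of miR-130a-3p ended at 55.6, below every spot of the later days, and were dimmer on the left.

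miR-301a-3p was detected on the arrays after D0. At D0 it was not detected, where up to 4.95 (3 times the summed error of its probes) could have gone undetected. The D4 array gave 9.26 ± 1.51, the D12 array 10.6 ± 1.53 and the D16 array 7.58 ± 1.16. These later days differed by less than 1 technical error from their neighbours in the order D16, D4 and D12. Against the D0 limit the signal was at least 1.87-fold higher at D4, at least 2.14-fold at D12 and at least 1.53-fold at D16. After division by the median ratio these bounds became 0.723, 1.07 and 1.16 in the order of the days, and the value for D4, being below 1, gives no direction. Of the 1552 miRNAs not detected at D0, 67 were found at D4, D12 and D16 alike, which is 4.32%.

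A single probe, A_54_P2440, made up the signal of miR-301a-3p. It was 1.59 times its error at D0 and 6.13, 6.93 and 6.54 times at D4, D12 and D16. All 15 of its spots were well above background on each later day and none was at D0. The D0 spots ranged from 2.05 to 10.5 and the lowest later spot was 25.8, so they did not overlap. The other probe, A_54_P2441, stayed between 2.23 and 2.55 errors on the later days, just under detection, and was at 0.690 at D0. With the detected probe alone on both sides of the comparison, the signal was at least 3.72-fold higher at D4 than at D0, at least 4.26-fold at D12 and at least 3.05-fold at D16. The median ratios of all miRNAs were 2.59, 1.99 and 1.32. A_54_P2440 was picked by its detection on the later days. Its signals in errors, its spots and these bounds are therefore no separate support for a rise. Over both probes the bounds of miR-301a-3p divided by the median ratio were 0.723, 1.07 and 1.16. The change from D4 to D12 was 1.14 ± 0.249 and that from D12 to D16 was 0.716 ± 0.150. The D12/D4 ratio of miR-130a-3p was 1.48 ± 0.356 times that of miR-301a-3p, a difference of 1.34 technical errors.

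miR-130b-3p was not detected on any array. Neither of its probes exceeded 3 times its error, and the summed limit ran from 4.91 on the D0 array through 5.28 (D16) and 6.65 (D12) to 7.12 on the D4 array, so no ratio is given. In all, 1414 of the 1881 miRNAs (75.2%) were not detected on any array. Its probe A_54_P1266 came nearest to detection at D12, with 1.78 times its error and all 15 spots between 4.72 and 13.4. At D0 that probe had spots from -4.94 to 2.46. The other probe, A_54_P1265, was at 0.707 times its error at D12. Its spots ran from -4.55 to 6.55 there and from -7.69 to 3.91 at D0, so they overlapped. None of the spots of miR-130b-3p was well above background on any day. miR-130a-3p, which differs from it by 2 bases, was at its highest on the same D12 array, and its part in the spots of miR-130b-3p was not tested.

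**Figure D3:**
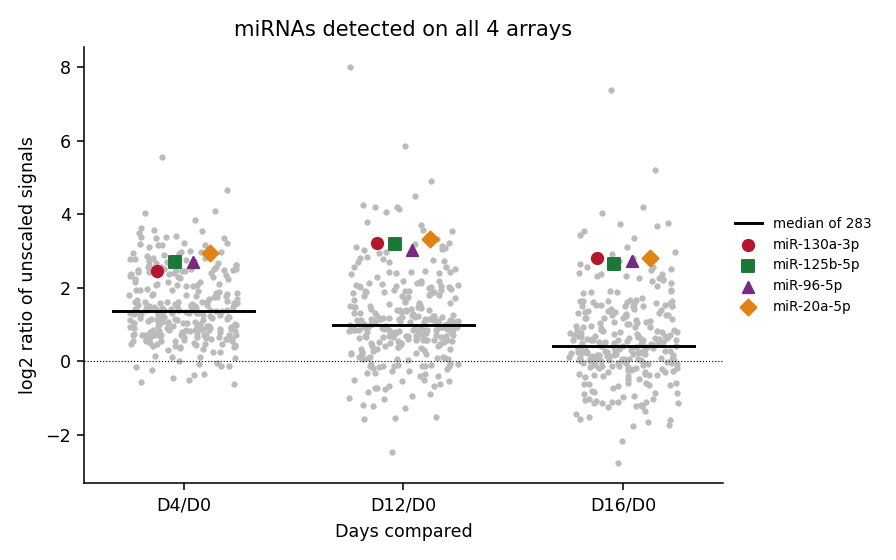
Ratio of unscaled signals to D0 (log2 scale) of the 283 miRNAs detected on all 4 arrays, as grey points, with the median as a bar. Coloured symbols mark miR-130a-3p and the 3 miRNAs nearest to it in pattern. The medians were 1.37, 1.00 and 0.41, and miR-130a-3p lay at 2.46, 3.22 and 2.79.

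The courses most like that of miR-130a-3p were those of miR-125b-5p, miR-96-5p and miR-20a-5p. Likeness was the root mean square difference of log2 signals, each centred on its mean over the 4 days, and a factor common to an array cancels in it. It was 0.14 for miR-125b-5p, 0.15 for miR-96-5p and 0.19 for miR-20a-5p over the 283 miRNAs. Their D12/D0 ratios were 9.07, 8.16 and 9.92, close to the 9.30 of miR-130a-3p. For miR-301a-3p the nearest over D4, D12 and D16 were let-7i-5p (0.04), miR-103-3p (0.05) and miR-19b-3p (0.06). These lists were not stable, because the Pearson correlation in place of the difference kept none of the 3 for either member. Over the probes detected on every array, 1 of the 3 was kept for miR-130a-3p.

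Beyond the members, the seed AGUGCAA occurred in 4 more mature miRNAs of the RefSeq table, all of them on the array. They are shown because they carry the same target-pairing stretch on other 3′ ends.
miR-721: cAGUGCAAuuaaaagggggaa
miR-6389: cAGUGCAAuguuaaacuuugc
miR-130c: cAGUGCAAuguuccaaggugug
miR-6341: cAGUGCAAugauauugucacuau
miR-130c, miR-6341 and miR-6389 were not detected on any day, and neither was miR-301b-3p, which is on the array. miR-721 was detected at D0 and lost later. Its signal was 12.2 ± 1.04 at D0 and 4.40 ± 0.898 at D4, and it was not detected at D12 or D16. At D0 all 4 of its probes were detected, at 5.52 to 6.24 times their error. At D12 they were at 0.565 to 1.05 times, and at D16 none was detected either. The signal was at least 1.85-fold lower at D12 and at least 2.31-fold lower at D16 than at D0, while the median miRNA was 1.99-fold and 1.32-fold higher. Of the 329 miRNAs detected at D0, 29 were lost at both D12 and D16, which is 8.81%. At D4 2 of its probes were summed against 4 at D0, so the ratio of 0.360 between these days is not over the same probes.

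The passenger strands stayed below detection. miR-130a-5p, miR-130b-5p, miR-301a-5p and miR-301b-5p, from the opposite arms of the same hairpins, were not detected on any array. For miR-130a-5p the limit was 4.91 at D0 and 6.59 at D12.

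A related stretch, shifted by 1 base, is carried by the miR-148 and miR-152 family and by miR-19. The capitals mark the letters of this stretch that are shared with the members.
miR-148a-3p: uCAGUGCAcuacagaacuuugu
miR-148b-3p: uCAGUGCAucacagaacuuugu
miR-152-3p: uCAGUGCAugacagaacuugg
miR-19a-3p: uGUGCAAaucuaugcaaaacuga
miR-19b-3p: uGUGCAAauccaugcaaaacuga
Bases 2 to 8 of miR-148a-3p, miR-148b-3p and miR-152-3p, which are their seeds, equal bases 1 to 7 of the members. Bases 2 to 7 of miR-19a-3p and miR-19b-3p equal bases 3 to 8. Of these 5 miRNAs, 1 was detected at D0, 4 at D4, and 5 at both D12 and D16. Of all 1881 miRNAs, 329, 426, 406 and 380 were detected in the order of the days. miR-19b-3p, of the miR-17-92 cluster known for growth promotion, was the one present at D0. It went from 5.88 ± 1.02 at D0 to 48.8 ± 4.40 at D12, and its D12/D0 ratio of 8.31 ± 1.62 differed from that of miR-130a-3p by 0.457 technical errors. miR-152-3p was at 29.5 ± 2.73, 47.7 ± 3.82 and 31.6 ± 2.61 from D4 on and was at least 9.56-fold above its D0 limit at D12. miR-148a-3p was detected at D12 and D16 alone, with 25.7 ± 2.46 and 22.9 ± 2.11, and was at least 5.23-fold above its D0 limit at D12. For miR-19a-3p and miR-148b-3p the D12 bounds were 2.98 and 1.23. At D4 and D16 the bounds of miR-148b-3p were 0.784 and 0.836, which give no direction. These bounds are unscaled, and the median miRNA was 1.99-fold higher at D12. From D4 to D12 the change of miR-152-3p was 1.62 ± 0.198, and miR-130a-3p moved 1.04 ± 0.168 times as much, so these courses did not differ beyond their error.

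**Figure D4:**
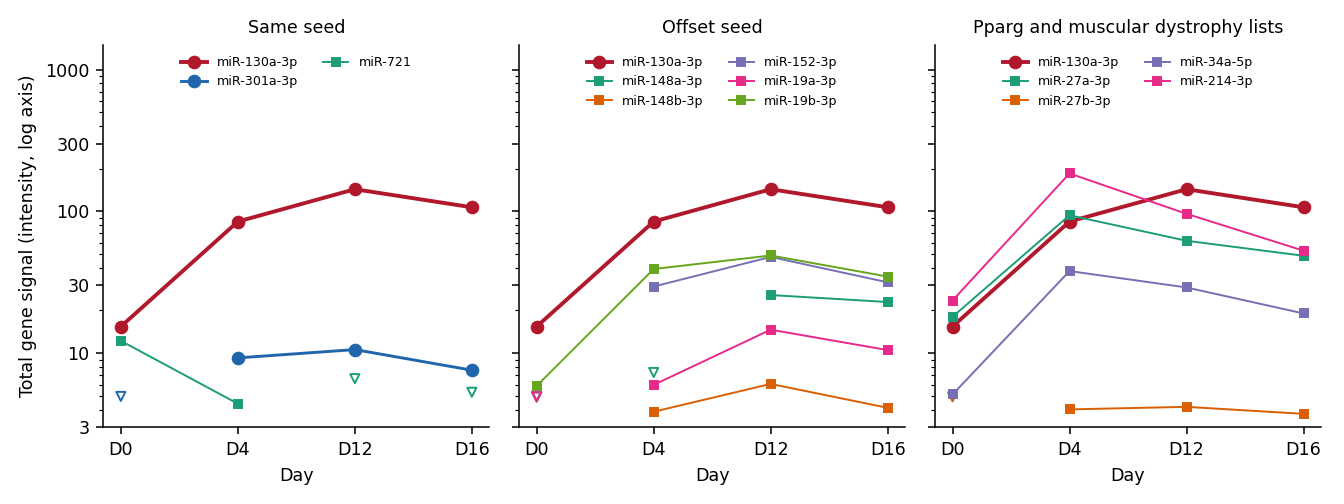
Total gene signal by day (intensity, log axis) of miR-130a-3p beside miRNAs with the same seed, with the offset seed, and of the lists described as acting on Pparg or in muscular dystrophy. Each point is 1 array, and open triangles give the limit on days without detection, where those at D0 overlap. miR-721 went from 12.2 at D0 to below detection at D12, and the unscaled signals of miR-27a-3p, miR-34a-5p and miR-214-3p were highest at D4 and that of miR-130a-3p at D12. After division by the median ratio the ratios to D0 of miR-27a-3p were 2.01, 1.72 and 2.04 at D4, D12 and D16. Those of miR-130a-3p were 2.13, 4.66 and 5.24.

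miR-27a-3p and miR-27b-3p are also described as repressors of Pparg. miR-27a-3p gave 18.0 ± 1.90 on the D0 array, 93.9 ± 7.63 on D4, 62.0 ± 5.20 on D12 and 48.6 ± 4.04 on D16, so that the unscaled signal was highest at D4. Its ratios to D0 divided by the median ratio were 2.01, 1.72 and 2.04, with no such peak. Up to D4 it kept pace with miR-130a-3p, whose D4/D0 ratio was 1.06 ± 0.195 times as large. From D4 to D12 miR-27a-3p was at 0.660 ± 0.0771, and the change of miR-130a-3p was 2.56 ± 0.400 times as large, 3.90 technical errors from equality. A scaling factor of an array cancels in this quotient. miR-27b-3p was not detected at D0 and stayed at 3.73 to 4.18 on the later days. Its D0 limit of 4.92 lay above these signals, so no direction is given.

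The study took up miR-130a-3p together with miR-34a-5p and miR-214-3p as miRNAs linked to muscular dystrophy. Unscaled, these 3 were above 2-fold at D12, as were 47.8% of the 297 miRNAs detected at D0 and D12. The ratios were 5.69 ± 1.21 for miR-34a-5p and 4.09 ± 0.512 for miR-214-3p. Of the unscaled signals, those of miR-34a-5p and miR-214-3p were highest at D4. Divided by the median ratio, the ratios to D0 were 2.87, 2.85 and 2.82 for miR-34a-5p and 3.04, 2.05 and 1.70 for miR-214-3p in the order of the days. From D4 to D12 miR-34a-5p was at 0.766 ± 0.0990 and miR-214-3p at 0.519 ± 0.0593, and the change of miR-130a-3p was 2.21 ± 0.366 and 3.26 ± 0.503 times as large. For D12/D0 the ratio of miR-130a-3p was 1.64 ± 0.404 times that of miR-34a-5p, which is 1.57 technical errors from equality, and 2.28 ± 0.406 times that of miR-214-3p, which is 3.14 errors.

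Some marker miRNAs of other cells were also detected on the later arrays. Among all 1881 miRNAs, 329, 426, 406 and 380 were detected in the order of the days. Signals below are unscaled, and the D4, D12 and D16 arrays stood at medians of 2.59, 1.99 and 1.32 times D0. From D4 to D12 the ratio was 5.42 for miR-451a, 4.12 for the leukocyte miR-223-3p and 4.04 for miR-126a-3p. It was 1.69 for miR-130a-3p and 1.14 for miR-301a-3p. The median ratio of all miRNAs was 0.843, and 4.81% of 374 miRNAs were above 2. The summed signal of 3 red blood cell miRNAs (miR-451a, miR-144-3p and miR-486a-5p) was 9.40 at D0, with 1 of 3 detected, and 468, 2524 and 1649 on the later arrays in order, with 3 of 3. Of 3 leukocyte miRNAs 0, 1, 2 and 2 were detected in the order of the days, with sums of 0, 16.9, 76.9 and 52.9, and miR-150-5p was never detected. The endothelial miR-126a-3p was detected from D4 on, with signals of 13.4, 54.0 and 59.9. The liver miRNA miR-122-5p was detected at D12 (6.26) and D16 (4.13), against a limit of 4.94 at D0. The part of such RNA in the values of miR-130a-3p and miR-301a-3p was not tested. Of 6 miRNAs listed for adipocytes and mesenchymal cells, 3 were detected at D0, 4 at D4 and 5 at D12 and D16, with sums of 90.4, 838, 735 and 477 in the order of the days, and miR-145a-5p was never detected. None of 3 striated muscle and 2 neuronal miRNAs was detected on any day.

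**Figure D5:**
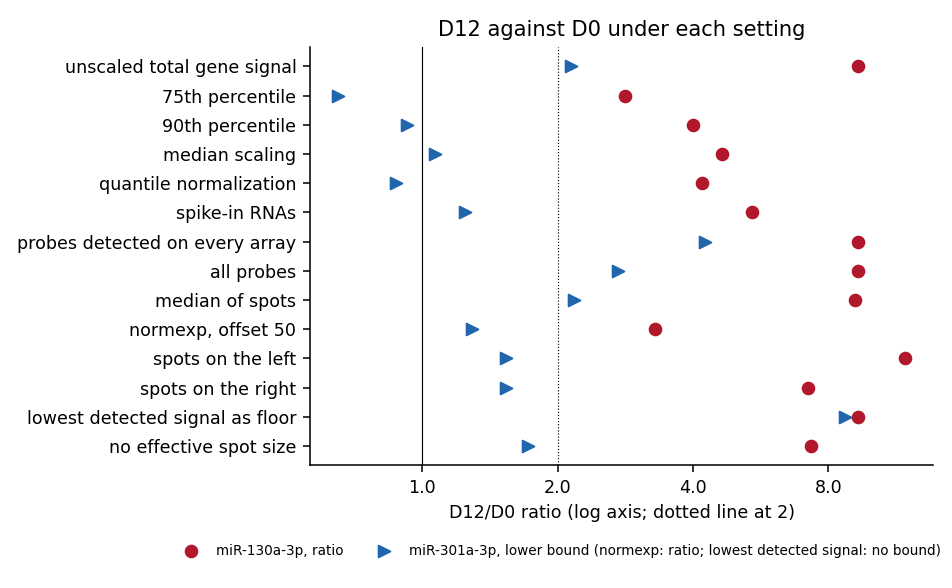
D12/D0 ratio of miR-130a-3p (circles) and lower bound for miR-301a-3p (triangles, a ratio for normexp) on a log axis, under the unscaled main treatment and 13 other settings. The solid line is no change and the dotted line 2-fold. miR-130a-3p stayed above 2-fold under all of them, from 2.83 to 11.8, while the bound for miR-301a-3p ran from 0.650 to 4.26, apart from the 8.70 against the lowest detected D0 signal, which is no bound.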

How the data were processed

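Exosome RNA was labelled with Cy3 and hybridised to SurePrint G3 mouse miRNA arrays. The values deposited are intensity per spot, probe and miRNA, which the authors obtained with Agilent's Feature Extraction software (11.0.1.1), with local background subtracted and no scaling between arrays. The software multiplies a total signal by an effective spot size, its default of 0.6 at D0 and D16 and estimates of 0.780 at D4 and 0.760 at D12. A miRNA was detected if a probe exceeded 3 times its error, a rule that gave the call of the software for all 1881 miRNAs, and is listed at 0.1 otherwise. Per array, 329 to 426 miRNAs were detected, no spot was saturated, and precision is limited by there being 4 arrays.

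Ratios, errors propagated from those of the software, and ranks were computed with Python 3.11.15, numpy 2.4.6 and pandas 2.3.3. The normexp alternative, on median spot signals, used limma 3.58.1 in R 4.3.3. A ratio against a day without detection is a lower bound that uses 3 times the summed probe error. The steps were tested on simulated data. Members and lists were chosen with earlier results of these data known. Named miRNAs were the members, miRNAs of their seed and hairpins, the listed related miRNAs, and the 3 nearest in pattern to each member. Of the array's miRNAs, 1608 matched a mature sequence by name. The qPCR and muscle cell experiments were not analysed here.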

Additional observations from a re-analysis of the deposited data

How the results depend on the processing

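The D12/D0 ratio of miR-130a-3p kept its direction and stayed above 2-fold under the 13 other settings, from 2.83 to 11.8. It was 2.83 with the 75th percentile, 4.01 with the 90th, 4.64 with median scaling, 4.19 after quantile normalization, 5.40 with the 4 spike-in RNAs, 3.30 after normexp with an offset of 50, 11.8 and 7.23 from spots on the left and right, and 7.34 without the effective spot size, a setting chosen after seeing the data. The bound for miR-301a-3p, 2.14 in the main treatment, was in the same order 0.650, 0.922, 1.07, 0.873 and 1.24 under the scalings, 1.29 (a ratio) after normexp, 1.53 and 1.54 by side, and 1.72 without the spot size. A bound below 1 gives no direction. It was 4.26 over the detected probe, which was picked by its detection on the later days, and 2.73 over all probes. The lowest detected D0 signal as the floor gave 8.70, which is no bound, since that floor (1.22) lies below the D0 signal of the probe itself (1.32). The number of members above 2-fold was 2 in the main treatment, with miR-301a-3p counted by its bound. It was 1 under the 5 scalings, normexp, either side of the array and no spot size, and the cause was not tested. Of the 297 miRNAs detected at D0 and D12, 47.8% passed 2-fold unscaled and 19.5% after division by the median. These shares leave out miR-301a-3p, which was not detected at D0. The D4/D0 ratio of miR-130a-3p ran from 1.29 to 6.99 and was below 2-fold with the 75th percentile (1.29), the 90th (1.86) and quantile normalization (1.95). The D16/D12 ratio of miR-130a-3p was above 1 under the 5 scalings and below 1 under the other 8 settings. Without the spot size it was 0.939, against 0.746 in the main treatment. Detection days of the members were the same when at least 50% of the spots had to be well above background and with a common threshold of 1.75. No paired analysis was possible because each day has 1 array.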

Other observations

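The D0 proportion of the probes of miR-130a-3p was set beside other miRNAs. In 161 miRNAs with exactly 2 probes, both detected on all 4 arrays, the probe that was brighter at D12 was divided by the other. The median quotient was 1.28 on the D0 array and 1.26 to 1.29 on the others. On the D0 array 26 of the 161 were below 1, on the D4 array 25 and on the D16 array 19. On the D12 array no quotient can be below 1, since that array set which probe was divided by the other. The quotient of miR-130a-3p, 1.01 at D0 and 1.37 later, was thus below the median at D0 and above it on the other days. The values are from single arrays and no test was made.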
